A study of Mus musculus with 10 samples.

Results

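The heat shock proteins and DnaJ cochaperones described here are the genes whose symbol in the annotation of the array platform starts with Hsp90, Hspa, Hspb, Hspd, Hspe, Hsph, Dnaja, Dnajb or Dnajc. The rule found 72 such genes among 18193 genes measured. Each was read from 1 probe set, a group of short oligonucleotides against 1 transcript, taken as the one with the highest mean over the 10 arrays. A filter on the mean level, at an intensity of 13.6, left 63 of the 72 for testing among 13644 genes. The 9 genes below it (Dnajb3, Dnajb7, Dnajc5b, Dnajc5g, Dnajc6, Hspa12b, Hspa1l, Hspb3 and Hspb9) had means between 8.47 and 13.6 and are not called absent. The rule used no difference between groups.

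Heat shock proteins are chaperones: they hold unfolded proteins, help them to fold and pass those that cannot fold to degradation. HSP70 proteins bind and release their clients in a cycle driven by ATP, DnaJ proteins bring clients to HSP70 and start ATP hydrolysis, HSP110 proteins exchange the nucleotide, HSP90 acts late in folding, and small heat shock proteins keep clients from aggregating. Part of the family is switched on by heat and other protein damage through the factor HSF1, and another part, in the endoplasmic reticulum, through the unfolded protein response. In human cells, chaperones of both kinds take part in the folding and the degradation of CFTR, the chloride channel that cystic fibrosis mice lack.

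The arrays hold total RNA of B6xBALB F2 mice, grandchildren of a cross of 2 inbred strains. The labels name 8 cystic fibrosis knockouts, of which 5 carry the letter H and 3 the letter L in their titles, and 2 controls, which carry D in that place. The letters are not spelled out, the ages are not given, and weight is named as variable in the title of the series. The titles also give M (6 arrays) or F (4 arrays) and an animal number, which is in an upper range for 5 knockouts and in a lower range for 3 knockouts and both controls. The numbers are the only sign of a batch in the labels. Each array is taken as 1 animal from its number; nothing else says so, and the spread that enters the p-values may be technical.

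Cftr, the deleted gene, had intensities of 19.7 to 35.5 (median 29.8) in the 8 knockouts, against 131 and 137 in the controls. The log2 difference was -1.91 ± 0.16 (SE; limma, adjusted p = 0.00528). The labels give whole right lung as the tissue, but the 11 measured markers of the small intestine epithelium summed to 26460 to 33230 in knockouts and to 40130 and 41630 in controls. Of these, 8 had a negative and 3 a positive difference, up to 0.65, with a median of -0.51 on the log2 scale. Anpep, Cdx2, Fabp2 and Vil1 passed the threshold, all lower in knockouts (-1.23, -0.85, -0.93 and -0.51). The part of the intestinal markers in the members' values was not tested. The 11 markers of lung epithelium summed to 4144 to 14010 in knockouts, against 5053 and 5384 in controls. Markers of both tissues were thus present, and their levels cannot be compared between probe sets. In such bulk samples, fewer cells of a type and less RNA per cell cannot be told apart.

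Promoter sequences show which members carry the letters that HSF1 and the factors of the unfolded protein response are known to bind. They are from RefSeq on the mouse build GRCm38.p6, from 250 bases before to 50 after the annotated start, and were found for 59 of the 72 members. The sequences below were chosen because they hold a match in members the results turn on. Capitals mark the fixed letters of a match and small letters the rest, all 5′ to 3′ on the gene's strand. The heat shock element marked in Hspa1a is only the 2-unit part GAANNTTC. The full element of 3 units is in Hsph1 and Hspe1. The Hsph1 window shown belongs to the second annotated start listed for the gene, and its 3-unit element lies after that start.
Hspa1a, heat shock element, chr17:34972193-34972320, minus strand: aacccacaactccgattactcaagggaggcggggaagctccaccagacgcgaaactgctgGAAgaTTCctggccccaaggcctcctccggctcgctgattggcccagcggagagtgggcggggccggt
Hsph1, heat shock elements, chr5:149636266-149636429, minus strand: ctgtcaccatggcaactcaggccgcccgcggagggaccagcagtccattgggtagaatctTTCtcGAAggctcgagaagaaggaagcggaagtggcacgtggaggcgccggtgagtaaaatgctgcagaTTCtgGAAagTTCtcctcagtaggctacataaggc
Hspe1, heat shock elements, chr1:55087999-55088136, plus strand: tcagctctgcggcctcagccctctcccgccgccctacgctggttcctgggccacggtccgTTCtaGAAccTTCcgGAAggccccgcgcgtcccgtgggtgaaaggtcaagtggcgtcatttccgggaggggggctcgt
Hspa5, endoplasmic reticulum stress element, chr2:34771965-34772103, plus strand: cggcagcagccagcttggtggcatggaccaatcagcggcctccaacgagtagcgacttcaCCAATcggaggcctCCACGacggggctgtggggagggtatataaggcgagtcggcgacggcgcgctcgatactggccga
Hsp90b1, endoplasmic reticulum stress elements, chr10:86705503-86705686, minus strand: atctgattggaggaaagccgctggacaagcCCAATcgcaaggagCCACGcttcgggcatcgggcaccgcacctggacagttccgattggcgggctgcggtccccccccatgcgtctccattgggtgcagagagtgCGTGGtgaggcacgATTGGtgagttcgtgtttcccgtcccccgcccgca
Dnajc3, endoplasmic reticulum stress element, chr14:118937767-118937905, plus strand: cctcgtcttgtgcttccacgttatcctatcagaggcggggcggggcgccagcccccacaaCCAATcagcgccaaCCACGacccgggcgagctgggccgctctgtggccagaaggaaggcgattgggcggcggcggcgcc

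The motifs searched, on both strands, were the heat shock element of 3 units GAANNTTCNNGAA, its parts GAANNTTC and TTCNNGAA, and the endoplasmic reticulum stress element, CCAAT and CCACG with 9 bases between. A match to the 3-unit element always holds both shorter ones. The 3-unit element was in windows of 4 members (Dnajb6, Hspd1, Hspe1 and Hsph1), or 6.78% of those with a window, against 0.662% of all 27025 genes with a window. GAANNTTC was in 14 members (23.7%, against 9.04% of all genes) and TTCNNGAA in 6 (10.2%, against 9.6%). The stress element was in Dnajc3, Hsp90b1 and Hspa5, or 5.08% of members, against 0.137% of all genes. Hspa1a and Hspa1b, neighbouring genes of the inducible HSP70, have windows that differ at 4 of 300 bases, and the stretch printed for Hspa1a is the same in Hspa1b. Hspd1 and Hspe1, which encode HSP60 and HSP10 of the mitochondrial chaperonin, start in opposite directions from a shared region, and their windows have 285 bases in common. A match is a description, and no binding was measured.

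The knockouts were set against the controls to ask which transcripts differ without Cftr. No member passed the threshold (limma, Benjamini-Hochberg adjusted p under 0.05 over 13644 genes), while 1.52% of all genes were called higher and 2.79% lower in knockouts. At an unadjusted p under 0.05, 9 members were higher and 4 lower, against 8.66% and 10.8% of all genes. Of the 63 members, 38 had a positive and 25 a negative difference, with a median of 0.05 on the log2 scale. Over all genes 48.7% of differences were positive, against 60.3% of the members, and the median was -0.005. The number range was a covariate, so the differences rest on 3 knockouts and 2 controls of the lower range. Fitted on the lower range alone, with 2 residual degrees of freedom, Dnajc10, Hsp90aa1, Hspa4l, Hspd1, Hspe1 and Hsph1 were called higher and no member lower, against 3.17% and 4.4% of all genes. Without covariates, Dnaja2, Hspa4, Hspa8, Hspa9, Hspd1 and Hspe1 were called higher and Dnajb12 lower, against 4.59% and 5.42% of all genes. Left-out knockouts changed the members called too. Dnajc21 was called without H replicate 1, and Dnajc10 and Dnajc21 without H replicate 2. Without H replicate 3, Dnajc10, Hsp90aa1, Hspd1 and Hspe1 were called, among 606 of all genes. Hspb1 was called without H replicate 5, among 263 of all genes. At most 813 of the 13644 genes were called with any 1 array left out. The calls without H replicates 1 and 2 are given without the share of all genes in the same runs. The number of all genes called, 588, was 0 without control replicate 1 and 57 without control replicate 2.

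**Figure D1:**
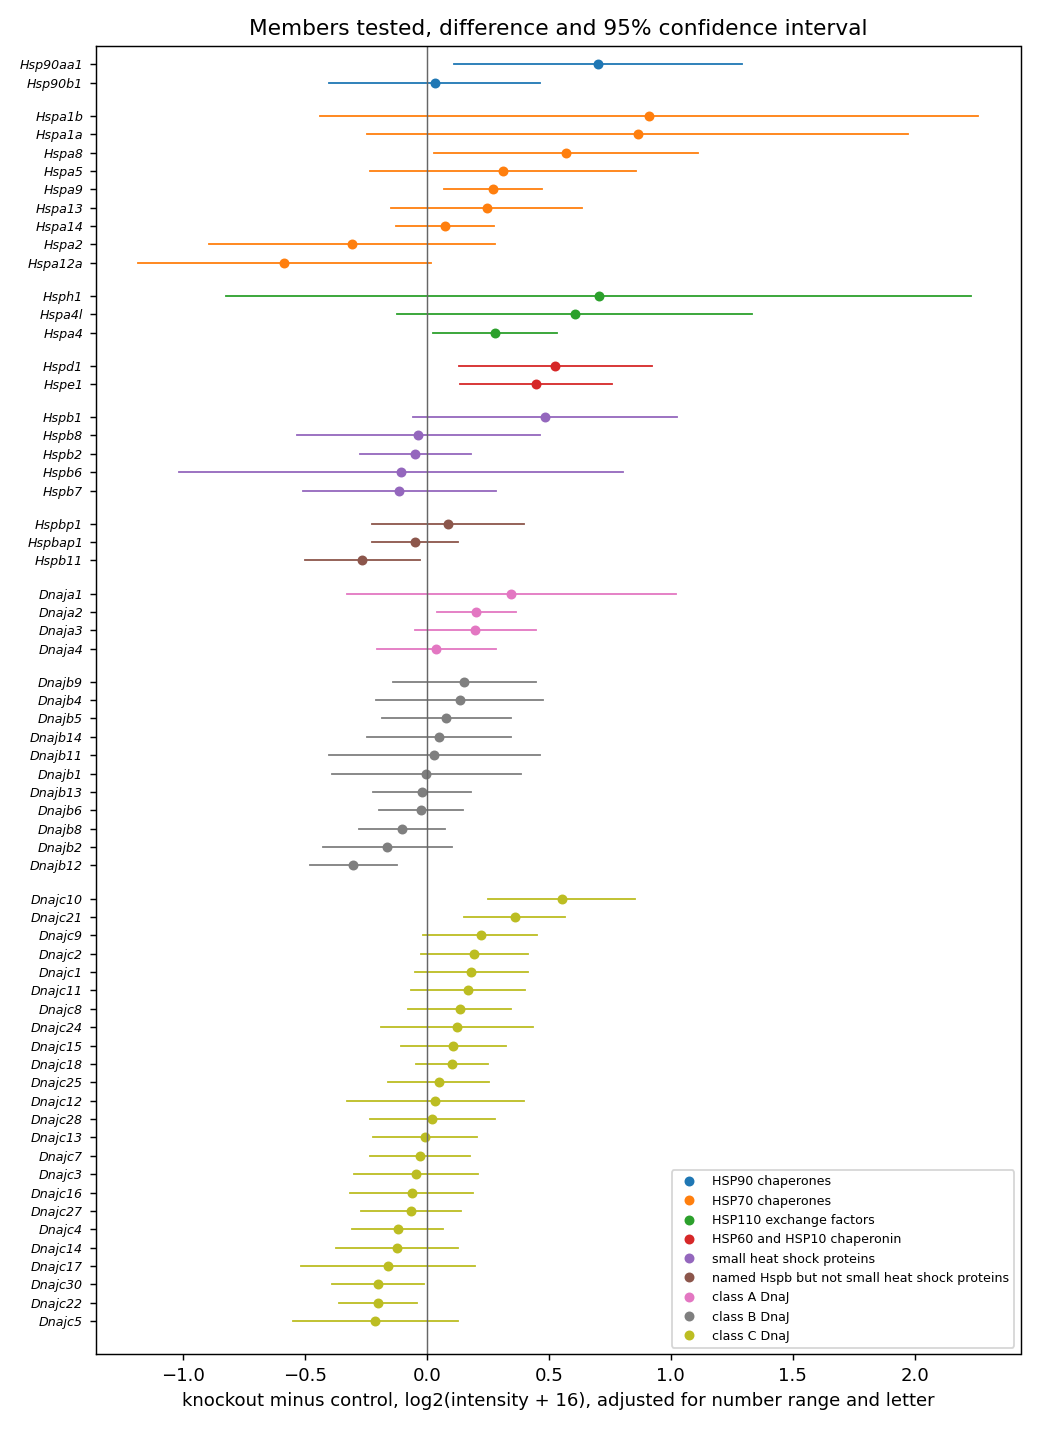
Difference between knockouts and controls on the log2(intensity + 16) scale for each of the 63 members tested, adjusted for number range and letter (points) with 95% confidence intervals (lines), grouped and coloured by role. Dnajc10 is the member with the smallest adjusted p (0.0535); the intervals of Hspa1b, Hspa1a and Hsph1 are wide and include 0.

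In 16 of 63 members (25.4%) all 8 knockouts lay above both controls, against 10% of all genes tested. They were Dnaja2, Dnaja3, Dnajc1, Dnajc10, Dnajc18, Dnajc2, Dnajc21, Dnajc8, Dnajc9, Hspa13, Hspa14, Hspa4, Hspa4l, Hspa8, Hspa9 and Hspe1. In 3 members (4.76%), Dnajb12, Dnajc30 and Hspb11, all knockouts lay below both controls, against 11.7% of all genes. These counts take no account of the number range, which separates the 5 upper-range knockouts from the controls. By array, the mean deviation of the 63 members from their own means was highest in knockout H replicate 2 (0.15 on the log2 scale) and lowest in control replicate 1 (-0.18). Control replicate 1 was the lowest array for 21 members and knockout H replicate 2 the highest for 20. The same counts were not made over all genes tested, so they cannot be read as particular to the members.

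Of the 12 heat-inducible members, 11 had positive differences, with a median of 0.55 on the log2 scale. None passed the threshold, and 4 were higher at an unadjusted p under 0.05 (limma), against 8.66% of all genes. The list also holds members that cells make without stress, such as Hspa8, Hspd1 and Hspe1. Some markers of other cell types had medians of similar size: those of Paneth and goblet cells were positive in 8 of 12 (median 0.48), with Agr2, a goblet cell gene, called higher (0.65, adjusted p = 0.0432), and those of T and killer cells were negative in 10 of 10 (median -0.49, none called). The Paneth and goblet markers summed to 51780 to 62090 in knockouts, against 51560 and 53900 in controls, and the T and killer cell markers to 245.8 to 1456 in knockouts, against 939.5 and 1042 in controls. Their part in the members' values was not tested. Hspa1b, the stress-inducible cytosolic HSP70, had intensities from 187 to 981 (median 597) in the 8 knockouts, against 262 and 298 in the controls. The other 7 knockouts lay above both controls and knockout H replicate 3 below them. The log2 difference was 0.91 ± 0.60 (SE; adjusted p = 0.46), with a 95% confidence interval of -0.44 to 2.26. Its neighbour Hspa1a ranged from 39.2 to 176 (median 94.1) in knockouts, against 49.7 and 46.1 in controls, with the same array lowest. Its difference was 0.86, and 0.53 without knockout L replicate 3. Transcripts of the pair are so alike that their probe sets may measure both. Hsph1, an HSP110 exchange factor, ranged from 181 to 1122 (median 575) in knockouts, against 275 and 347 in controls, a difference of 0.70 ± 0.68 (adjusted p = 0.642). Both controls lay between knockout H replicate 3 and the other knockouts. The difference was 0.36 without knockout H replicate 5, 0.36 without control replicate 1 and 0.29 without H replicates 2 and 5. A second probe set of Hsph1 gave 1.09. Hspa4l, a relative of Hsph1, had 81.5 to 221 (median 130) in knockouts and 62.8 and 72.0 in controls, with no overlap. Its difference was 0.61 ± 0.32 (adjusted p = 0.35), and it was called on the lower range alone (adjusted p = 0.0156).

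Hsp90aa1, the inducible cytosolic HSP90, had 1201 to 2249 (median 2006) in knockouts, against 937 and 1334 in controls. The lowest knockout, H replicate 3, lay between the controls. The difference was 0.70 ± 0.26 (adjusted p = 0.178), but 0.45 without control replicate 1. On the lower range alone the adjusted p was 0.00856 (limma). Other bright probe sets of Hsp90aa1 gave 0.584 and 1.046, and dim ones with means of 17.03 and 12.65 gave 0.1 and 0.013. Hspa8, the HSP70 that cells also make without stress, had 1915 to 3435 (median 2754) in knockouts, against 1881 and 1405 in controls. All knockouts lay above both controls, by a narrow margin in knockout H replicate 3. The difference was 0.57 ± 0.24 (adjusted p = 0.231). It was 0.32 without knockout H replicate 5, 0.37 without control replicate 2 and 0.28 without H replicates 2 and 5. The other probe sets of Hspa8 gave 0.275, 0.62 and 0.274. Dnaja1, a DnaJ partner of Hspa8, had 825 to 1772 (median 1208) in knockouts and 860 and 771 in controls, a difference of 0.35 ± 0.30 (adjusted p = 0.598). It was 0.11 without knockout H replicate 5, 0.06 without H replicates 2 and 5 and 0.15 as the mean of its probe sets. Dnajb1, the stress-inducible DnaJ, had 301 to 475 (median 361) in knockouts, against 330 and 332 in controls, a difference of -0.003 ± 0.17 (adjusted p = 0.996). A second probe set of Dnajb1 gave 0.29. Dnajb4, another cytosolic DnaJ, had 61.3 to 94.5 (median 78.6) in knockouts and 60.3 and 73.0 in controls, with overlap and a difference of 0.13 ± 0.15 (adjusted p = 0.703; 0.02 without control replicate 1 and 0.23 without control replicate 2).

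**Figure D2:**
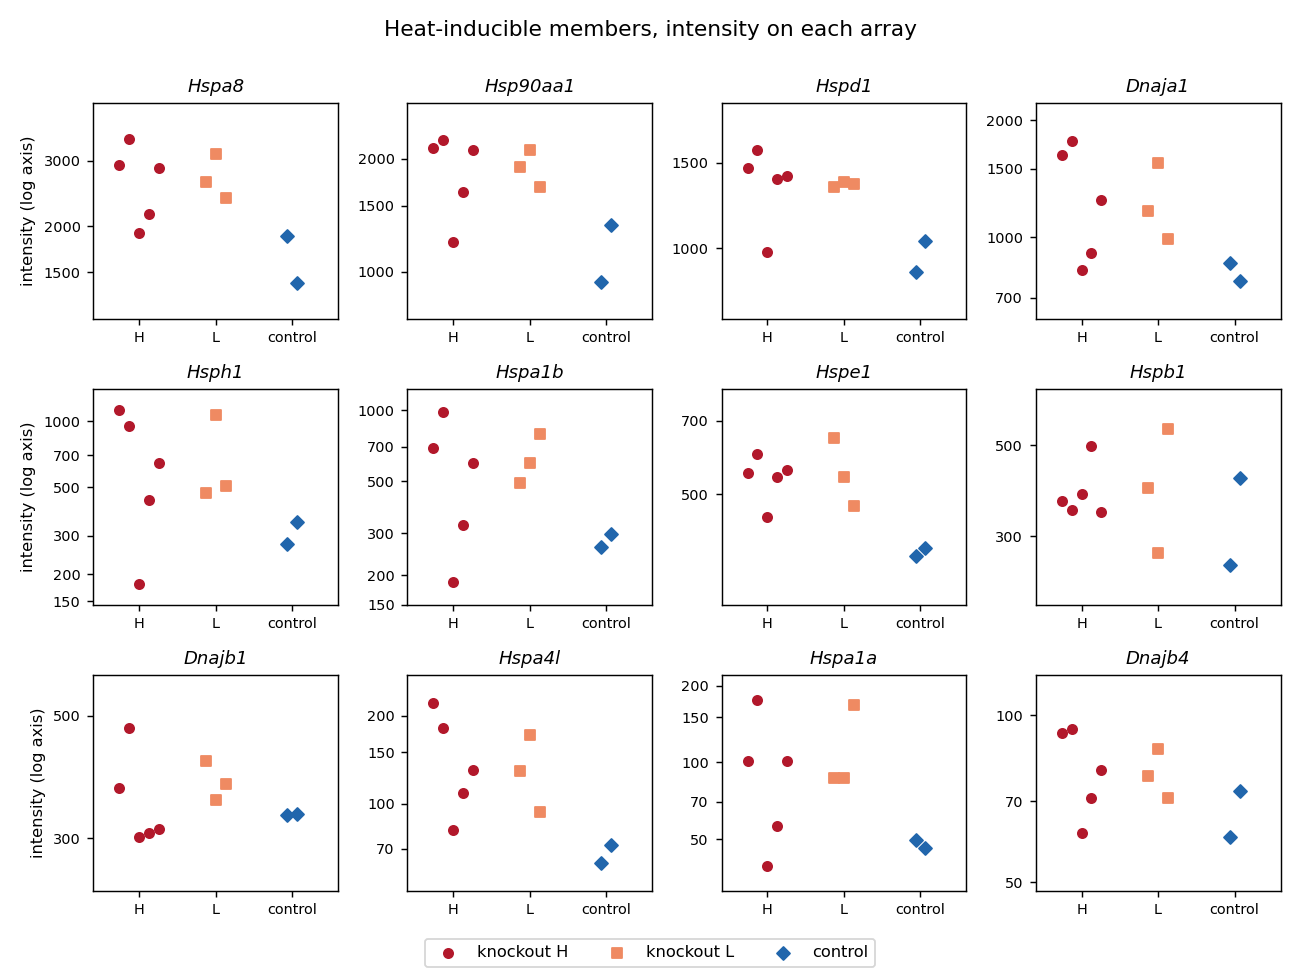
Intensity on a log axis of the 12 heat-inducible members in the 5 knockout H, 3 knockout L and 2 control arrays, with 1 point for each array in replicate order. Knockout H replicate 3, the middle point of the H column, is the lowest knockout in 11 of the 12 panels.

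The spread among knockouts was wide for the same genes. In 6 of the 12 heat-inducible members the highest knockout was over 2 times the lowest. Over all 10 arrays, the median ratio of the highest to the lowest array was 1.57 for the 63 members and 1.51 for all genes tested. Knockout H replicate 2 was the highest knockout in 8 of them and knockout H replicate 3 the lowest in 11. Knockout H replicate 3 lay below at least 1 control in 9 and below both in 4. Both controls were below the median knockout in 11. None of these counts was made over all genes. As a mean over the 12 genes, the deviation on the log2 scale was 0.52 in knockout H replicate 2, 0.38 in H replicate 1, 0.26 in L replicate 2, 0.15 in H replicate 5, 0.14 in L replicate 3 and 0.11 in L replicate 1. It was -0.12 in H replicate 4 and -0.51 in H replicate 3, against -0.39 in control replicate 2 and -0.53 in control replicate 1. The markers of lung epithelium were also highest in H replicate 2 (1.14) and lowest in H replicate 3 (-0.65). They were 0.77 in H replicate 5, 0.31 in L replicate 2, 0.12 in H replicate 1 and -0.21 in H replicate 4. L replicate 3 stood at -0.34 and L replicate 1 at -0.43, against -0.25 and -0.45 in the controls. All 11 of these markers had positive differences in knockouts (median 0.52), none past the threshold. Without the 2 arrays highest in lung transcripts, H replicates 2 and 5, the median difference of the heat-inducible members was 0.41. The part of lung transcripts in the spread among knockouts was not tested.

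**Figure D3:**
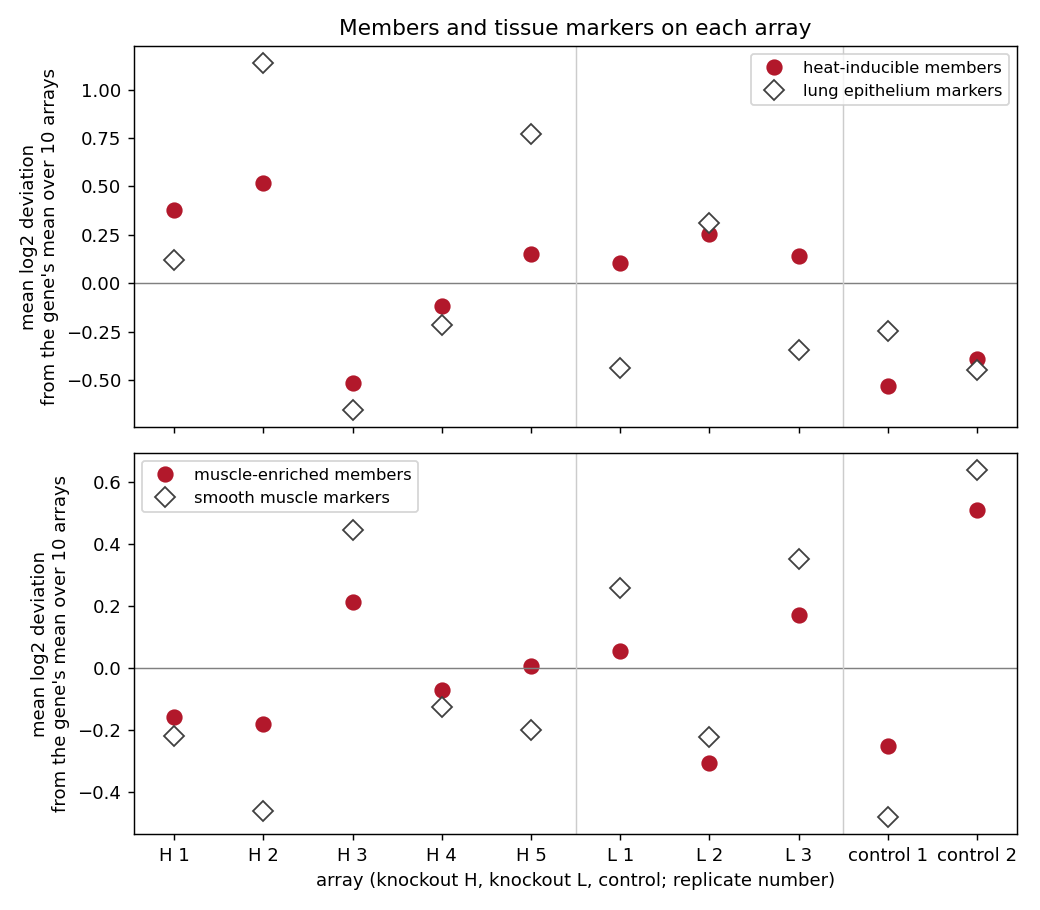
Mean log2 deviation from each gene's mean over the 10 arrays, by array, of the 12 heat-inducible members and 11 lung epithelium markers (top) and of 5 muscle-enriched members and 11 smooth muscle markers (bottom). Knockout H replicate 3 is low in both upper series (-0.51 and -0.65), and control replicate 2 is the highest array in both lower series (0.51 and 0.64).

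The mitochondrial members were 7 of 9 positive, with a median of 0.17. Of them, 3 were higher and 1 lower at an unadjusted p under 0.05 (limma), against 8.66% and 10.8% of all genes. Hspd1 had 982 to 1594 (median 1380) in knockouts, against 893 and 1035 in controls. Of the knockouts, H replicate 3 alone lay between the controls. The difference was 0.53 ± 0.18 (adjusted p = 0.137). Hspe1, its partner, had 451 to 648 (median 547) in knockouts and 377 and 390 in controls, with no overlap. The difference was 0.45 ± 0.14 (adjusted p = 0.11). On the lower range alone the adjusted p was 0.0191 for Hspd1 and 0.039 for Hspe1. Hspa9, the mitochondrial HSP70 that pulls proteins through the inner membrane, had 508 to 607 (median 551) in knockouts and 423 and 481 in controls. Its difference was 0.27 ± 0.09 (adjusted p = 0.132). Dnaja3, a DnaJ partner of Hspa9, had 152 to 199 (median 173) in knockouts and 146 and 144 in controls (0.20 ± 0.11, adjusted p = 0.376). Dnajc30, a DnaJ protein of mitochondria, had 199 to 239 (median 210) in knockouts and 241 and 263 in controls, lower on all knockouts (-0.20 ± 0.08, adjusted p = 0.231, and -0.32 to -0.10 with 1 array left out). Dnajc4, Dnajc11, Dnajc15 and Dnajc28, also of mitochondria, had differences between -0.12 and 0.17.

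Members of the endoplasmic reticulum were 9 of 12 positive with a median of 0.05. Dnajc10, a reductase that opens disulfides of proteins bound for degradation, had 205 to 294 (median 258) in knockouts, against 183 and 191 in controls. All knockouts lay above both controls. The difference was 0.55 ± 0.13 (95% confidence interval 0.25 to 0.86, adjusted p = 0.0535), the smallest adjusted p of the members. Over the alternatives its adjusted p lay between 0.0213 and 0.275. Its other probe sets gave 0.47 and 0.39. Dnajb12, a DnaJ protein of the reticulum membrane known in human cells to act in CFTR degradation, had 36.4 to 52.6 (median 43.6) in knockouts and 68.6 and 64.8 in controls. All knockouts lay below both controls, and the upper-range knockouts lay lowest. The difference was -0.30 ± 0.08 (adjusted p = 0.0689, and 0.0247 to 0.337 over the alternatives). A second probe set gave -0.24.

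Hspa5 (BiP), the HSP70 of the reticulum, had 1455 to 2925 (median 2248) in knockouts and 1636 and 1703 in controls. The array of knockout H replicate 3 lay below both controls, and the difference was 0.31 ± 0.24 (adjusted p = 0.542). Of its other probe sets, 1 gave 0.33 and 1 gave -0.15. Hsp90b1, the HSP90 of the reticulum, had 1073 to 1592 (median 1331) in knockouts and 1087 and 1499 in controls, overlapping throughout (0.03 ± 0.19, adjusted p = 0.957). A second probe set of Hsp90b1 gave 0.56, so its value depends on the probe set. Dnajc3, which binds BiP, had 405 to 545 (median 463) in knockouts and 439 and 458 in controls (-0.04 ± 0.11, adjusted p = 0.878). Its 4 other probe sets gave 0.11, 0.20, 0.16 and 0.26, so its sign depends on the probe set. Dnajb11, a BiP partner in folding, had 350 to 630 (median 487) in knockouts and 462 and 487 in controls (0.03 ± 0.19, adjusted p = 0.959). Dnajb9, another BiP partner, had 335 to 480 (median 405) in knockouts, against 362 and 392 in controls (0.15 ± 0.13, adjusted p = 0.588). By the probe sets used, the 3 members with a stress element in the promoter thus had differences between -0.04 and 0.31, each with an interval that includes 0, while their other probe sets ran from -0.15 to 0.56. Of 26 other genes of the reticulum stress response, 11 were positive and none passed the threshold (median -0.03). Syvn1, a ubiquitin ligase of the reticulum, had the smallest p (-0.27, adjusted p = 0.167), and Xbp1, a factor of the response, gave 0.26 (adjusted p = 0.305).

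Among the other DnaJ proteins, class A was positive in 4 of 4 (median 0.20), class B in 5 of 11 (median -0.003) and class C in 13 of 24 (median 0.03). Dnaja2, a cytosolic partner of Hspa8, had 828 to 940 (median 902) in knockouts and 790 and 718 in controls, a difference of 0.20 ± 0.07 (adjusted p = 0.159). Its 3 other probe sets gave 0.18, -0.03 and -0.03. Dnajc21, which acts in the maturation of the large ribosomal subunit, had 69.9 to 88.6 (median 80.0) in knockouts and 58.9 and 69.1 in controls. Its difference was 0.36 ± 0.09 (adjusted p = 0.0633), but its other probe sets gave values from -0.16 to 0.13. Dnajc22 had 198 to 264 (median 245) in knockouts and 240 on both control arrays, a difference of -0.20 ± 0.07 (adjusted p = 0.155) that rests on the lower range. Dnajc8, a protein of the spliceosome and the brightest of class C, had 513 to 638 (median 554) in knockouts and 491 and 501 in controls (0.13 ± 0.09, adjusted p = 0.487). Dnajc5, the cysteine string protein of secretory vesicles, had 197 to 298 (median 234) in knockouts, against 292 and 275 in controls (-0.21 ± 0.15, adjusted p = 0.502). Dnajb6, a suppressor of aggregation that holds a 3-unit heat shock element, had 392 to 458 (median 424) in knockouts and 433 and 430 in controls (-0.02 ± 0.08, adjusted p = 0.919).

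The HSP70 family also holds members with negative differences. Hspa12a, a distant relative, had 50.2 to 156 (median 83.3) in knockouts, against 104 and 114 in controls. Knockout L replicate 2 was its highest array, L replicate 3 its lowest, and the difference was -0.58 ± 0.27 (adjusted p = 0.269), or -0.38 without L replicate 3. Hspa2, best known from the testis, had 24.6 to 53.1 (median 27.9) in knockouts and 21.7 and 67.9 in controls (-0.31 ± 0.26, adjusted p = 0.589). The controls lay at both ends of its range. Hspb11, named like a small heat shock protein but a part of the transport along cilia, had 49.4 to 68.0 (median 62.7) in knockouts and 69.2 and 69.3 in controls. Its difference was -0.26 ± 0.10 (adjusted p = 0.202). Hspbp1, an exchange factor of HSP70, and Hspbap1, which binds Hspb1, gave 0.09 and -0.05. Hspa4, an HSP110 factor, had 279 to 384 (median 321) in knockouts and 250 and 255 in controls, with no overlap (0.28 ± 0.11, adjusted p = 0.211).

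Hspb6, Hspb7 and Hspb8, small heat shock proteins enriched in muscle, differed more between the 2 controls than between the groups by the probe sets used. Hspb6 had 62.1 to 176 (median 94.1) in knockouts, against 59.9 and 220 in controls. Hspb8 had 40.2 to 67.4 (median 50.4) in knockouts, against 36.0 and 83.5 in controls, and Hspb7 had 13.8 to 32.7 (median 22.8), against 23.8 and 49.0 in controls. For Hspb6 and Hspb8 the 2 controls were the lowest and the highest of the 10 arrays. The differences were -0.10 ± 0.40, -0.04 ± 0.22 and -0.11 ± 0.17, with adjusted p values of 0.928, 0.96 and 0.792. Over the 5 muscle-enriched members tested the mean deviation was 0.51 in control replicate 2 and -0.25 in control replicate 1. The 11 smooth muscle markers stood at 0.64 and -0.48 on these arrays, and at 0.45 in knockout H replicate 3, where the muscle-enriched members stood at 0.21. Those markers summed to 5990 to 10650 in knockouts, against 11930 and 5884 in controls. The part of muscle content in these members' values was not tested. Hspb1, the heat-inducible small heat shock protein, had 274 to 549 (median 374) in knockouts and 255 and 416 in controls, a difference of 0.48 ± 0.24 (adjusted p = 0.315). This value rested on single arrays: it was 0.10 without control replicate 1 (adjusted p = 0.918), 0.81 without control replicate 2 (adjusted p = 0.268), 0.91 without knockout H replicate 5 (adjusted p = 0.0166) and 0.93 without H replicates 2 and 5 (adjusted p = 0.0132).

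Among genes that work with the members, the TRiC chaperonin and prefoldin had 1 of 14 called higher and 1 lower. Of all genes, 1.52% were called higher and 2.79% lower. Of the 14, 11 were positive (median 0.16). At an unadjusted p under 0.05 (limma), 5 were higher and 1 lower, against 8.66% and 10.8% of all genes. Cct8, a TRiC subunit, averaged 438 ± 35.7 in knockouts and 293 ± 1.70 in controls (SD, n = 8 and 2; log2 difference 0.47, adjusted p = 0.0285). Pfdn1, a prefoldin subunit, averaged 212 ± 21.4 in knockouts and 268 ± 18.8 in controls (-0.44, adjusted p = 0.0384). Of 15 genes of mitochondrial import and quality control, 10 were positive (median 0.08), with 6 higher and 2 lower at an unadjusted p under 0.05 (limma). Yme1l1, a protease of the inner membrane, was the 1 called, and it was higher (144 ± 14.8 in knockouts and 85.3 ± 13.4 in controls, 0.60, adjusted p = 0.0327). Of 22 other cochaperones of HSP70 and HSP90, 16 were positive and none called, with Bag4, which regulates HSP70, nearest to the threshold (-0.43, adjusted p = 0.0545), before Bag6 (-0.26, adjusted p = 0.0989). The 4 heat shock factors and regulators tested lay between -0.03 (Hsf4) and 0.13 (Fkbp4). Hsf1, the gene of HSF1, was not among the genes measured, and Hsf2 (mean 10.7) was below the filter. The level of Hsf1 is therefore not known here. Of the 4 other heat shock proteins, Cryab gave 0.30 and Serpinh1 0.18, with none called. Of the 12 immediate early genes, which respond to handling of tissue, 8 were positive and none called, with Dusp1 at 0.57 and Ier2 at 0.20.

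Knockouts H and L were compared to ask whether the members differ between the 2 letters. No member was called, nor was any of the 13644 genes in either direction (0% higher and 0% lower; limma). At an unadjusted p under 0.05, 0 members were higher and 1 lower, against 1.09% and 1.13% of all genes. The members were 24 positive and 39 negative, with a median of -0.04, against a median of 0 over all genes. In no member did all H arrays lie above or below all L arrays, against 0.901% and 0.652% of all genes. Hspb2, a small heat shock protein of muscle, was the 1 lower member, at 25.1, 27.6, 25.4, 22.3 and 29.2 in the H arrays and 30.9, 25.2 and 30.7 in the L arrays. The groups overlapped, and the difference was -0.21 ± 0.06 (adjusted p = 1). The smooth muscle markers were negative in 11 of 11 in this comparison (median -0.49). Intervals for the heat-inducible members were wide: Hspa1b differed by -0.47, with a 95% confidence interval of -1.75 to 0.81, and Hsph1 by -0.11 (-1.61 to 1.40). Hsp90b1 was -0.28 (-0.64 to 0.08) and Hspa8 0.001 (-0.53 to 0.54). The other members at the ends were Dnajc24 (0.19), Hspbap1 (0.09), Dnajb8 (0.07), Dnajc2 (0.08), Hspbp1 (0.12) and Dnaja3 (0.08), and on the negative side Dnajc1 (-0.17), Dnajc7 (-0.12), Dnajb5 (-0.16) and Dnajc14 (-0.14). The comparison cannot show whether the members are alike in H and L animals.

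Between the number ranges, 0.132% of all genes were higher and 0.169% lower in the upper range, and no member passed. At an unadjusted p under 0.05, 5 members were higher and 4 lower, against 5.39% and 4.83% of all genes. The members were 31 positive and 32 negative, with a median of -0.003, against -0.004 over all genes. All upper-range knockouts lay above all lower-range knockouts in 3 members (5.24% of all genes did so) and below in 2 (5.78% of all genes). Dnajc7, a DnaJ protein that binds both HSP70 and HSP90, had 251, 260, 230, 232 and 224 in the upper-range knockouts. The lower-range knockouts had 335, 334 and 332, and the controls, also of the lower range, 316 and 367. The groups did not overlap, and both controls sided with the lower-range knockouts. The difference was -0.48 ± 0.08 (95% confidence interval -0.66 to -0.31, adjusted p = 0.062). Dnajc7 was called without the letter and with a pseudocount of 64, and its adjusted p lay between 0.0139 and 0.346 over the alternatives. Between knockouts and controls it differed by -0.03.

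Dnajb14, a close relative of Dnajb12 in the reticulum membrane, had 97.5, 87.7, 111, 87.9 and 89.4 in the upper-range knockouts and 55.6, 53.1 and 63.3 in the lower-range knockouts. The controls stood at 42.4 and 75.1. The difference was 0.44 ± 0.12 (adjusted p = 0.294), and a second, dimmer probe set gave 0.14. Dnajb12 was opposite: its upper-range knockouts had 36.9, 43.9, 43.2, 39.7 and 36.4, against 52.4, 49.7 and 52.6 in lower-range knockouts (-0.23 ± 0.07, adjusted p = 0.366). Dnajc22 had 243 to 264 in the upper-range knockouts, against 198 to 219 in the lower-range knockouts, with the controls between (0.25 ± 0.06, adjusted p = 0.244). Dnajc4 had 108.4 to 122 in the upper-range knockouts and 97.5 to 108 in the lower-range knockouts (0.19 ± 0.08, adjusted p = 0.467). Of the other members at the ends, upper minus lower was 0.21 for Dnajc1, 0.23 for Hspa14, 0.18 for Dnajc13, -0.32 for Dnajb5, -0.51 for Hspb7, -0.48 for Hspb1 and -0.13 for Hspb2 on the log2 scale, with adjusted p values of 0.346 to 0.544. The value of Hspb1 lay between -1.01 (without knockout H replicate 5) and -0.28 (without L replicate 2) with 1 array left out, and that of Dnajc13 was 0.10 without L replicate 2. The immediate early genes were negative in 11 of 12 (median -0.38), and 8 were lower at an unadjusted p under 0.05, with none past the threshold. Their part in the members' values was not tested.

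**Figure D4:**
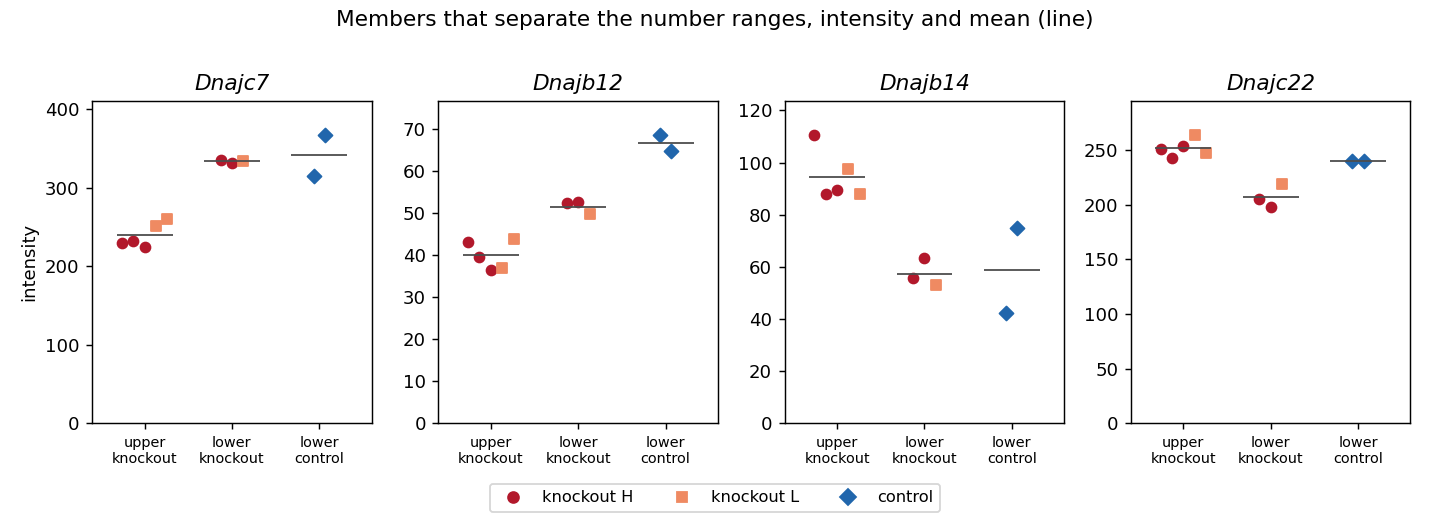
Intensity of Dnajc7, Dnajb12, Dnajb14 and Dnajc22 in the 5 upper-range knockouts, 3 lower-range knockouts and 2 lower-range controls, with the mean of each set as a line. Dnajc7 lies between 224 and 260 in the upper range, against 316 to 367 in the lower range.

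Over the 8 knockouts, 8 pairs of members that share a start region, an element or a known partnership were correlated on the log2 scale, with exact two-sided permutation p values adjusted over the 8 pairs. Before adjustment the exact p of r lay between 9.92e-05 and 0.0724 and that of rho between 0.000397 and 0.243. Pairs of other genes were not correlated, so a background for these values is lacking. Hspa8 went with Dnaja1 (Pearson's r = 0.964, adjusted p = 0.000595; Spearman's rho = 0.976, adjusted p = 0.00159) and with Hsp90aa1 (r = 0.951, adjusted p = 0.000595; rho = 0.976, adjusted p = 0.00159). It went with Hsph1 too (r = 0.909, adjusted p = 0.00466; rho = 0.881, adjusted p = 0.0145). The probe sets of Hspa1a and Hspa1b may measure both transcripts, and this pair gave r = 0.956 (adjusted p = 0.000926) and rho = 0.952 (adjusted p = 0.00304). Without the 2 arrays farthest from the median of the first gene, r was 0.935, 0.938, 0.787 and 0.907 for these 4 pairs. Hspd1 and Hspe1, which share a start region, gave r = 0.669 (adjusted p = 0.0724; rho = 0.476, adjusted p = 0.243), and -0.109 without knockout H replicates 2 and 3, so the relation rested on those arrays. In the reticulum, Hspa5 gave r = 0.942 with Dnajb11 (adjusted p = 0.00849; rho = 0.833, adjusted p = 0.0246) but 0.536 without the same arrays. With Hsp90b1 it gave r = 0.745 (adjusted p = 0.0313; rho = 0.667, adjusted p = 0.095), and with Dnajc3 r = 0.692 (adjusted p = 0.0464; rho = 0.762, adjusted p = 0.049). Without the 2 arrays these were 0.609 and 0.645. The ranges hold 5 and 3 knockouts, too few for a correlation within each. After the mean of each range was removed, r over the 8 pairs lay between 0.709 and 0.973.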

How the data were processed

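What the authors deposited is an intensity on a linear scale for every probe set; how it was summarized and normalized is not given in the sources used here. The medians of the arrays were 18.4 to 18.9. Probe sets with 1 gene symbol in the platform annotation were used (34945 of 45101), symbols were updated through RefSeq, which changed no member's symbol, and the probe set with the highest mean log2(intensity + 16) was taken per gene. Genes at or under the 25th percentile of the mean were left out. Differences were fitted with limma 3.58.1 in R 4.3.3 (lmFit, eBayes), with number range and letter as covariates, in 2 groups for knockouts against controls and in 3 groups for the other comparisons. Log2 differences and folds are on the log2(intensity + 16) scale, which understates dim genes, and are adjusted for the covariates, so that they can differ from ratios of the values given. Calls used a Benjamini-Hochberg adjusted p of 0.05 over 13644 genes. Arrays carry no depth; their number limits the precision. The fit was tested on simulated data. Correlations used scipy and plots matplotlib. Of probe sets with several symbols, 3 name a member and were not used.

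Named in each comparison were the members past the threshold and, by moderated t, 6 at each end, the 3 members per role with the highest mean, members of the place lists, and of each pathway list the genes past the threshold or else the 2 with the smallest p between knockouts and controls. Of marker lists only genes past the threshold are named, not the 2 brightest as planned. Members named beyond these, and the members of non-overlapping groups, were chosen after their values were seen. The members and lists were chosen with earlier results of these data known. Alternatives were other pseudocounts, filters, normalization, covariates, subsets and left-out arrays.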

Additional observations from a re-analysis of the deposited data

Results flagged for a closer look

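In 4 of the 63 members, 1 of the 5 knockout H arrays stood far from the other 4, by a criterion that chance meets in about 5% of such groups. Hspa2 had 53.1 in knockout H replicate 3, with the other H arrays at 28.8 or lower. Hspb6 had 175.9 on the same array, with the next at 94.7. Hspb1 had 499.4 in knockout H replicate 4, with the next at 381. Dnajc30 had 239 in knockout H replicate 4, with the next at 210.3. The smooth muscle markers stood at 0.45 (mean log2 deviation) in knockout H replicate 3 and at -0.12 in H replicate 4, and their part was not tested.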

How the results depend on the processing

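The members past the threshold between knockouts and controls numbered 0, against 1 with a pseudocount of 64 (Dnajb12), 1 with a filter at the 50th percentile, 1 with the number range as the only covariate (both Dnajc10), 1 without the 2 arrays highest in lung transcripts (Hspb1), 6 on the lower range alone, 7 without covariates, and 0 to 4 with 1 array left out. All genes called there numbered 588, against 1033 on the lower range alone, 1366 without covariates and 0 to 813 with 1 array left out. Without the 2 arrays highest in lung transcripts, all genes called numbered 408. No alternative gave more than the 1366 without covariates. The median over the members was 0.05, and 0.02 to 0.131 with 1 array left out. Between the number ranges the members called were 0, against 1 with a pseudocount of 64 and 1 without the letter (both Dnajc7). All genes called there numbered 41, against 26 with a pseudocount of 1, 13 with all probe sets averaged, 150 without the letter, 12 in the knockouts alone, 1 without the 2 arrays highest in lung transcripts and 0 to 44 with 1 array left out. No alternative run gave a call between knockouts H and L. The sign of Dnajb1, near 0, turned: its difference of -0.003 was 0.022 with quantile normalization, 0.144 with all probe sets averaged, 0.111 without covariates, 0.046 without the 2 arrays highest in lung transcripts and -0.096 to 0.076 with 1 array left out. Hspbp1 between knockouts H and L was -0.048 to 0.205 with 1 array left out. As no member was called in the main fits, no result of a single member could lose a call. Among single members, 902 of 937 results kept their sign and stayed uncalled, 26 passed the threshold and 9 turned sign. The cause of these shifts was not tested. With a control left out, the lone control is assumed to vary like the other arrays. No paired analysis was possible because the labels match no knockout to a control. Precision is limited by the 2 controls, and dim members lie close to background.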
